A study of Mus musculus with 6 samples.

Results

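The Kv4 A-type potassium channels and their auxiliary subunits were followed here through 9 genes, chosen by symbol from the 23337 genes measured: the pore genes Kcnd1, Kcnd2 and Kcnd3, the KChIP genes Kcnip1, Kcnip2, Kcnip3 and Kcnip4, and the DPP-like genes Dpp6 and Dpp10. All 9 symbols were found. The RNA came from adult C57BL/6 mice, from SNc (substantia nigra pars compacta) dopaminergic neurons that were dissociated with papain and sorted by fluorescence. Both groups have 1 genotype, with the RC-Frepe reporter, Th-2A-Flpo and Sox6-FSF-Cre. Sox6+ neurons, which express the transcription factor Sox6, were sorted by GFP (3 libraries), and Sox6- neurons, which do not, were sorted by mCherry (3 libraries). Both groups have libraries numbered 103, 825 and 1211. Th drives the Flp recombinase and Sox6 the Cre recombinase, and recombination is permanent, so the colours record where these genes have been active. Separate animals are not named in the labels, and the p-values therefore rest on the spread among these libraries, which may be technical. The question was how the 2 dopaminergic populations differ.

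A-type channels open below the firing threshold, let potassium out of the cell and inactivate quickly, and so delay the next action potential. A Kv4 channel is built from pore-forming alpha subunits, cytoplasmic KChIPs, which are EF-hand calcium-binding proteins that raise surface expression and slow inactivation, and single-pass DPP-like proteins, relatives of a dipeptidyl peptidase without its enzyme activity, which speed gating. In mouse nigral dopaminergic neurons the A-type current is known to be carried by Kv4.3, the product of Kcnd3, with KChIP3, the product of Kcnip3, and it sets the pace of spontaneous firing. KChIP3 is also known as the transcriptional repressor DREAM and as calsenilin, and KChIP1 is known from GABAergic interneurons.

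The family members are related in sequence, which bears on how reads are assigned among them. Over whole coding sequences (GENCODE M21) the pore genes were from 70.3% to 73.3% identical, the KChIP genes from 68.4% to 72.4%, and Dpp6 and Dpp10 59.2%. The longest run of identical bases in any of these pairs was 29. Of overlapping genes, the antisense RNA Kcnd3os covers up to 165 bases of Kcnd3 exons, summed over its transcripts, on the opposite strand. Opposite parts of Kcnip4 lie 5730480H06Rik and Gm20700. The library kit marks strand, but whether the counting used it is not given in the sources used here. 5730480H06Rik lay at 20.1 normalized reads or fewer in every library. Kcnd3os and Gm20700 are not among the genes measured, so their levels are not known.

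The sequence before the transcription start is shown for Kcnd3 and Kcnip3, the members whose Sox6+ and Sox6- libraries did not overlap, and for Kcnip4, the most abundant member. Each is the 250 bases before a RefSeq start on GRCm38.p6, 5′ to 3′ along the gene, and capitals mark a match to ACAAT, the core that SOX proteins bind, on either strand. The Kcnd3 window is chr3:105451640-105451889 (plus strand), that of Kcnip3 is chr2:127522095-127522344 (minus strand) and that of Kcnip4 is chr5:49285660-49285909 (minus strand).
Kcnd3: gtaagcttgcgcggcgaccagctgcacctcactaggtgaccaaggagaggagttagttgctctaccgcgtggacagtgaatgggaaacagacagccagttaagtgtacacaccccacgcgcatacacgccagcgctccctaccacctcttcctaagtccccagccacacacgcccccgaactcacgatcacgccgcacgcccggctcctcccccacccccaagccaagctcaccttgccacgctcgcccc
Kcnip3: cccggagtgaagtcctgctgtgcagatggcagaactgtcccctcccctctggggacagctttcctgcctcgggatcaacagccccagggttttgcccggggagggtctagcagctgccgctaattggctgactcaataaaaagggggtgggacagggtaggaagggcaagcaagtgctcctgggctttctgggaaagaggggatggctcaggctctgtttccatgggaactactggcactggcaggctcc
Kcnip4: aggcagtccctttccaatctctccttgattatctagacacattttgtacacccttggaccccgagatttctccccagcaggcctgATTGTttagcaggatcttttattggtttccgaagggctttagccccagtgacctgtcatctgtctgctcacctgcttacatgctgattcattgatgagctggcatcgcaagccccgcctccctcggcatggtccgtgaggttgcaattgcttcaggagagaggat

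RefSeq windows were found for 8 of the 9 members, 15 windows in all. ACAAT or its reverse complement ATTGT was in 3 of them, 1 each of Kcnip1, Kcnip2 and Kcnip4, as it was in 27.7% of 32851 such windows over all genes. The longer AACAAT, which contains the first motif, was in the Kcnip4 window shown and in 9.42% of all windows. Neither was in the window of Kcnd3, in the other of the 2 Kcnip4 windows or in any of the 3 windows of Kcnip3. A match is a description of the letters and not a site, and its absence says only that these letters are not in this window.

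The libraries held from 10397924 to 12952768 reads in genes, and values are read counts divided by a size factor per library, written here as normalized reads. Sox6 lay at 840.5, 461.2 and 389.0 in Sox6+ libraries 103, 825 and 1211, against 103.6, 18.1 and 36.2 in the Sox6- libraries of the same numbers. All 8 dopaminergic markers were detected in every library, with sums from 102301.4 to 199075.0 in Sox6+ libraries and from 37578.8 to 128272.6 in Sox6- libraries. Macrophage and microglia markers summed to 27976.6 in Sox6+ library 825, mostly Lyz2, and to 11.1 to 35.5 in the other 5 libraries. In Sox6+ library 825 Lyz2 had 26494.1, Tyrobp 1035.1, Cd68 387.2 and Csf1r 58.1. Cx3cr1 had 2.3 there, and Aif1, C1qa and C1qb were at 0. The 3 GABAergic markers summed to 6667.9, 5.7 and 1472.1 in Sox6+ libraries 103, 825 and 1211, against 11532.3, 1181.3 and 6300.1 in the Sox6- libraries. The 2 glutamatergic markers summed to 162.8 to 999.3 in Sox6+ libraries and to 2236.7 to 4815.2 in Sox6- libraries, without overlap. Most of this was Slc17a6. Slc17a7 had reads only in the libraries numbered 103, at 126.3 in Sox6+ and 103.6 in Sox6-. Both oligodendrocyte precursor markers were at 0 in all libraries, as were Cldn5 and Cdh5 of the endothelial markers, and astrocyte markers summed to at most 4.6 in Sox6+ and 75.8 in Sox6- libraries. Oligodendrocyte markers summed to 2007.5 in Sox6+ library 825, mostly Mbp, and to 263.9 to 388.6 in the others. In such sorted pools, fewer cells of a type and less RNA per cell cannot be told apart.

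Among the pore genes Kcnd3 was higher in every Sox6+ library than in any Sox6- library, Kcnd2 was spread over both groups, and Kcnd1 was near the limit of detection. Among the auxiliary genes Kcnip3 also had groups that did not overlap, while Kcnip4, Dpp6 and Dpp10 were abundant in both groups. Of the 9 members, 8 had a mean of at least 10 and entered the fit of 13175 genes. With limma and Benjamini-Hochberg adjustment over all tested genes, 0 of the 8 passed 0.05, where 0.304% of all tested genes passed (40 genes, with 0.129% higher in Sox6+ neurons). At an unadjusted p under 0.05 there were 2 members, Kcnd3 and Kcnip3, both higher in Sox6+ neurons, where 11.4% of tested genes were below it (5.21% higher in Sox6+ neurons). EdgeR on the reads recovered from the normalized values called 0 members and 0.0455% of genes (0.00759% higher in Sox6+ neurons). DESeq2 on those reads called 1 member, Kcnd3, and 2.98% of genes (1.31% higher in Sox6+ neurons). The groups did not overlap in 2 of the 8 members, both higher in Sox6+ neurons, as in 17.0% of tested genes (7.86% higher and 9.19% lower in Sox6+ neurons). The median log2 difference of the 8 was -0.05, beside -0.02 for all tested genes.

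**Figure D1:**
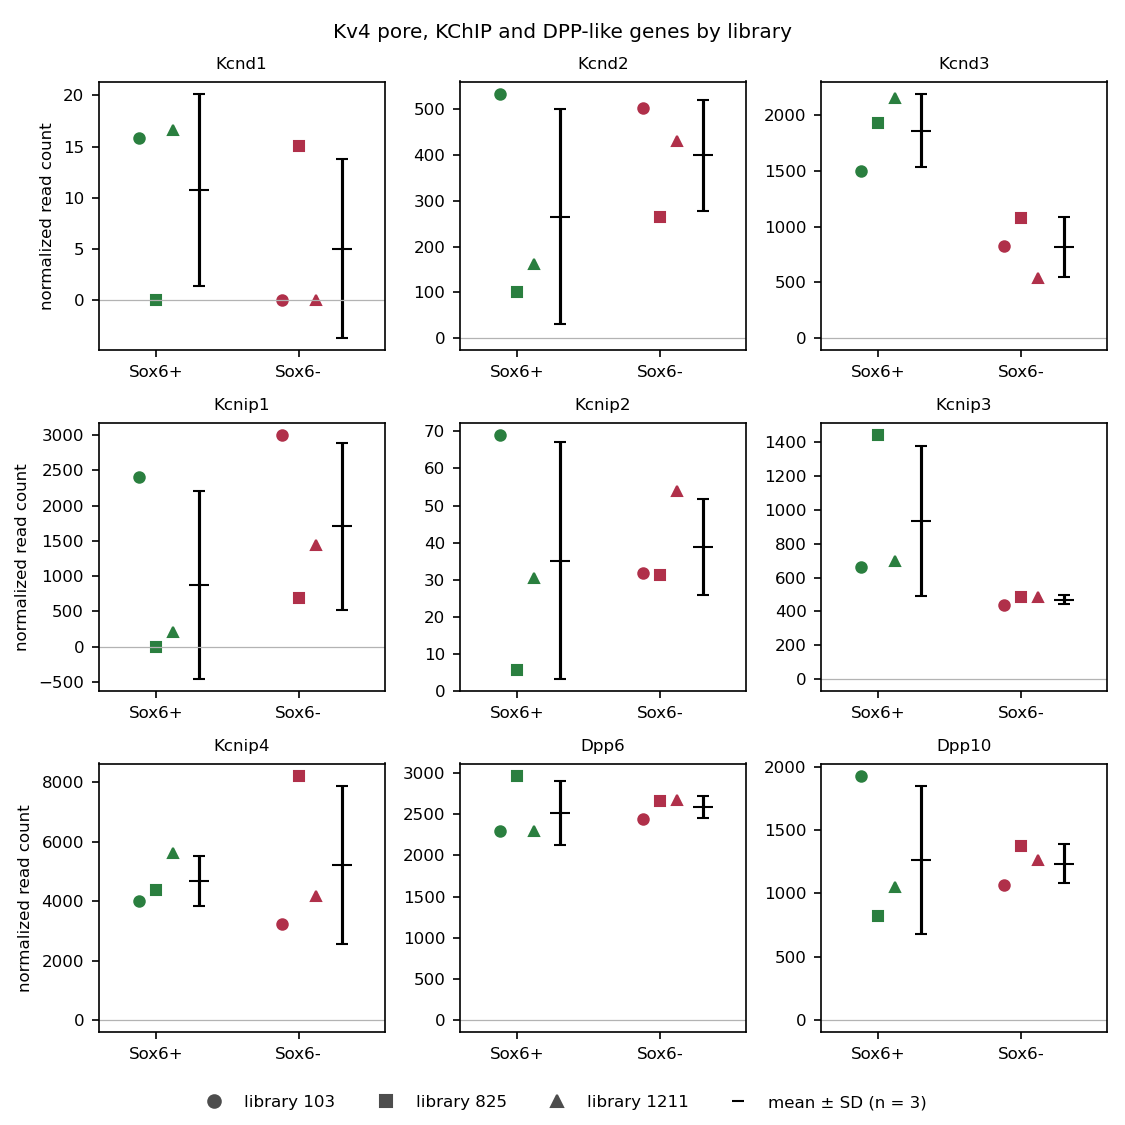
Normalized read counts of the 9 member genes (vertical axes, each with its own scale) in the 3 Sox6+ libraries (green, left) and the 3 Sox6- libraries (red, right); marker shapes give the library number and black bars the mean ± SD. The groups are apart for Kcnd3 (1500.5 and above in Sox6+, 1075.5 and below in Sox6-) and for Kcnip3 (662.0 and above in Sox6+, 486.4 and below in Sox6-).

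Kcnd3 encodes Kv4.3 and occupies bases 105452330 to 105674002 of chromosome 3, plus strand (GRCm38). It had 1500.5, 1927.8 and 2149.5 normalized reads in Sox6+ libraries 103, 825 and 1211, against 826.0, 1075.5 and 540.7 in the Sox6- libraries of those numbers. The lowest Sox6+ library was thus above the highest Sox6- library. The means were 1859.3 ± 329.9 in Sox6+ and 814.1 ± 267.6 in Sox6- neurons (SD, n = 3 each). The fitted log2 difference was 1.23 (standard error 0.256), or 2.35-fold with a 95% interval from 1.57 to 3.50. By its p of 0.000858 it ranked 115 of the 13175 tested genes, and its adjusted p was 0.0983 (limma), outside the threshold. A two-sided exact permutation test gave p = 0.1, and with 3 libraries a group no smaller p is possible.

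The call on Kcnd3 depended on the test. In the authors' deposited table, made with DESeq2, it had a log2 fold change of -1.19 for Sox6- over Sox6+ with an adjusted p of 0.00156, in a table where 2.83% of genes with an adjusted p were under 0.05. DESeq2 on the recovered reads gave a log2 difference of 1.19 and an adjusted p of 0.00155, and the edgeR quasi-likelihood test gave 1.18 and an adjusted p of 0.182. With 1 library left out, the limma log2 difference of Kcnd3 ran from 0.96 without Sox6- library 1211 to 1.46 without Sox6- library 825. Of these 6 fits only the one without Sox6+ library 103 had an adjusted p under 0.05, at 0.0494. With library weights, limma gave 1.38 and an adjusted p of 0.0295. Over all 21 alternatives the direction was the same, and the adjusted p ran from 0.00155 to 0.964. The highest came from limma without both libraries 1211, where the log2 difference was 0.85. In every other alternative the adjusted p was at most 0.391.

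Dopaminergic markers, like Kcnd3, had higher means in Sox6+ than in Sox6- neurons. The sum of the 8 markers was 102301.4, 199075.0 and 172673.4 in Sox6+ libraries 103, 825 and 1211, against 42108.7, 128272.6 and 37578.8 in the Sox6- libraries. All 8 had a positive log2 difference, with a median of 1.25, though only 0.21 for Nr4a2 and 0.13 for Foxa2. Of the 8, 0 passed the threshold (limma), and 5 were higher at an unadjusted p under 0.05, beside 5.21% of tested genes. The monoamine transporter gene Slc18a2 was the one marker whose groups did not overlap, with a log2 difference of 1.57. Unlike that of Kcnd3, the marker sum overlapped between groups, Sox6- library 825 being above Sox6+ library 103. The part of the markers in the Kcnd3 difference was not tested.

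The expression pattern most like that of Kcnd3 over the 6 libraries was that of Uqcr10, a subunit of respiratory complex III, with a Pearson r of 0.999 on the log2 scale. Elovl5, a fatty acid elongase, followed at 0.997 and Plcxd2 at 0.996. Of 9679 genes compared, 127 had an r above 0.95, and the 6 libraries behind each r are those of the comparison itself. Uqcr10 differed far less in size, at 4854.7, 5218.6 and 5415.3 in Sox6+ libraries 103, 825 and 1211, against 4071.5, 4446.2 and 3559.5 in the Sox6- libraries. Plcxd2 was closer in size to Kcnd3, at 1201.6, 1681.9 and 1859.3 in the Sox6+ libraries, against 708.0, 866.1 and 486.9 in the Sox6- libraries.

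Kcnd2 encodes Kv4.2, the main A-type pore of hippocampal dendrites, and occupies bases 21215503 to 21729805 of chromosome 6, plus strand. It had 533.7, 100.2 and 162.6 normalized reads in Sox6+ libraries 103, 825 and 1211, against 501.7, 264.9 and 430.3 in the Sox6- libraries. Both libraries numbered 103 were the highest of their group, and the groups overlapped. The log2 difference was -0.90 with a 95% interval from -2.22 to 0.42 and an adjusted p of 0.588 (limma). It was -0.39 without Sox6+ library 825 and -1.59 without Sox6+ library 103, so those libraries set its size.

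Kcnd1, which encodes Kv4.1 and occupies bases 7822289 to 7838280 of chromosome X, plus strand, had 16, 0 and 18 reads in Sox6+ libraries 103, 825 and 1211, against 0, 15 and 0 reads in the Sox6- libraries. Its mean of 7.92 kept it out of the test. With 3 reads as the limit that a count of 0 allows, a level up to 3.42 normalized reads in Sox6+ library 825, 2.88 in Sox6- library 103 and 2.78 in Sox6- library 1211 would not have been detected. Intervals and limits of this kind cover counting error only.

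Kcnip3, which encodes KChIP3, occupies bases 127456498 to 127522094 of chromosome 2, minus strand. It had 662.0, 1443.9 and 695.9 normalized reads in Sox6+ libraries 103, 825 and 1211, against 438.4, 486.4 and 486.0 in the Sox6- libraries. Every Sox6+ value was above every Sox6- value, and Sox6+ library 825 stood well above the other 2 Sox6+ libraries. The Sox6- libraries were close together, with a mean of 470.3 ± 27.6, beside 933.9 ± 442.0 in Sox6+ neurons (SD, n = 3 each). The log2 difference was 0.89 (standard error 0.291), or 1.86-fold with a 95% interval from 1.18 to 2.92. Its adjusted p was 0.286 (limma), at an unadjusted p of 0.0129 and an exact permutation p of 0.1.

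Without Sox6+ library 825 the log2 difference of Kcnip3 was 0.53 and the adjusted p 0.398 (limma), and the remaining groups still did not overlap. That library is the one where the macrophage and microglia markers summed to 27976.6, mostly Lyz2, with Aif1, C1qa and C1qb at 0. Whether its Kcnip3 reads came from other cells was not tested. The authors' deposited table gave Kcnip3 a log2 fold change of -0.99 for Sox6- over Sox6+ and an adjusted p of 0.0776, and DESeq2 on the recovered reads an adjusted p of 0.081. With edgeR the log2 difference was 0.97 and the adjusted p 0.333. The log2 difference of Kcnip3 was positive in all 21 alternatives, with adjusted p from 0.081 to 0.964, the last with limma without both libraries 1211.

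Kcnip4 encodes KChIP4, some of whose isoforms hold a domain that suppresses fast inactivation, and occupies bases 48389502 to 49524907 of chromosome 5, minus strand. It was the most abundant member by reads, at the 97.0th percentile of tested genes by mean. Its values were 4002.3, 4380.6 and 5616.7 normalized reads in Sox6+ libraries 103, 825 and 1211, against 3235.9, 8210.6 and 4167.0 in the Sox6- libraries. The highest and the lowest of the 6 values were both in Sox6- neurons. The log2 difference of -0.06 had a 95% interval from -0.80 to 0.69, a fold between 0.57 and 1.61, and an adjusted p of 0.965 (limma). It took the opposite sign without Sox6- library 825, at 0.33, and without Sox6+ library 103, at 0.05. Gene-level reads do not separate the KChIP4 isoforms.

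Kcnip1, which encodes KChIP1 and occupies bases 33629339 to 33993152 of chromosome 11, minus strand, differed most between libraries. It had 2406.1, 0.0 and 207.9 normalized reads in Sox6+ libraries 103, 825 and 1211, against 3007.6, 685.8 and 1436.6 in the Sox6- libraries. Library 103 was the highest in both groups, and Sox6+ library 825 had no read, which allows a level of up to 3.42. The means were 871.4 ± 1333.2 in Sox6+ and 1710.0 ± 1184.8 in Sox6- neurons (SD, n = 3 each). The log2 difference was -4.18 with a 95% interval from -12.69 to 4.33 and an adjusted p of 0.674 (limma), while edgeR gave -0.98 and DESeq2 -0.97. Without Sox6+ library 825 it was -1.02.

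The order of the libraries was shared only in part between the GABAergic markers Gad1, Gad2 and Slc32a1 and the members Kcnip1 and Kcnd2. Kcnip1 had 207.9 in Sox6+ library 1211 and 685.8 in Sox6- library 825. Gad1 went the other way between these libraries, at 1244.8 and 508.6, as did Slc32a1, at 34.2 and 27.2. Gad2, which makes GABA, had 1679.1, 0.0 and 193.1 normalized reads in Sox6+ libraries 103, 825 and 1211, against 3580.3, 645.5 and 3522.4 in the Sox6- libraries. Sox6+ library 825 was the lowest of the 6 for Kcnip1, Kcnd2, Gad1, Gad2 and Slc32a1, and Kcnip1, Gad1 and Gad2 were listed at 0 there. The marker sum was highest in Sox6- library 103, as was Kcnip1, while Kcnd2 was highest in Sox6+ library 103. The part of these markers in the Kcnip1 and Kcnd2 values was not tested.

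**Figure D2:**
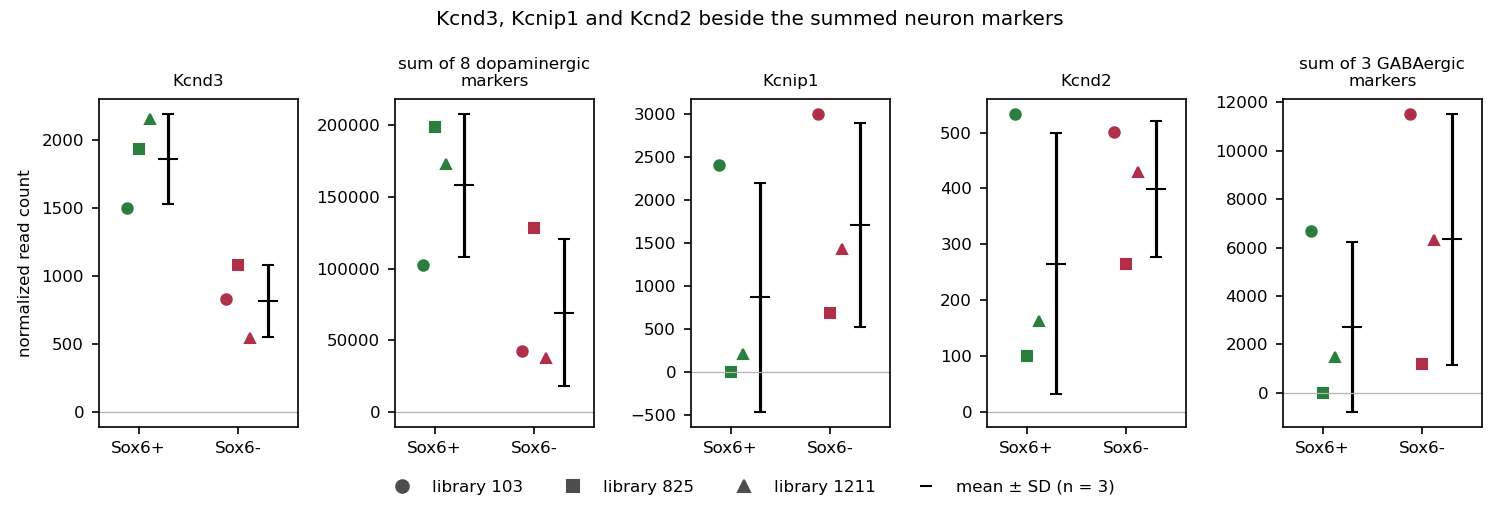
Normalized read counts of Kcnd3, of the summed 8 dopaminergic markers, of Kcnip1, of Kcnd2 and of the summed 3 GABAergic markers, in the Sox6+ libraries (green, left) and the Sox6- libraries (red, right), with the mean ± SD in black; each panel has its own scale. The 3 Kcnd3 values of Sox6+ neurons lie above those of Sox6- neurons, whereas the dopaminergic sum of Sox6- library 825 (128272.6) lies above that of Sox6+ library 103 (102301.4), and Kcnip1 and the GABAergic sum are both highest in Sox6- library 103.

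Kcnip2, which encodes KChIP2, the main KChIP of the heart, occupies bases 45791839 to 45816061 of chromosome 19, minus strand. It was low in all libraries, with 69.1, 5.7 and 30.5 normalized reads in Sox6+ libraries 103, 825 and 1211, against 31.7, 31.2 and 53.8 in the Sox6- libraries. The value in Sox6+ library 825 rested on 5 reads. The log2 difference of -0.65 (adjusted p = 0.812, limma) was 0.28 without that library.

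Dpp6 and Dpp10 had fitted differences close to 0. Dpp6, at bases 26817203 to 27727505 of chromosome 5, plus strand, had 2290.7, 2965.2 and 2293.6 normalized reads in Sox6+ libraries 103, 825 and 1211, against 2434.8, 2652.6 and 2670.1 in the Sox6- libraries. Its log2 difference of -0.05 had the narrowest interval of the members, from -0.39 to 0.29, which is a fold between 0.76 and 1.22 (adjusted p = 0.925, limma). Dpp10, at bases 123321471 to 124045559 of chromosome 1, minus strand, had 1929.6, 822.1 and 1048.9 in the Sox6+ libraries, against 1070.6, 1371.6 and 1262.2 in the Sox6- libraries. Its Sox6+ libraries lay on both sides of all Sox6- libraries. The log2 difference was -0.05 with an interval from -0.71 to 0.60, a fold between 0.61 and 1.52 (adjusted p = 0.964, limma). These intervals do not show that the groups are alike, and they do not include a 2-fold difference.

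**Figure D3:**
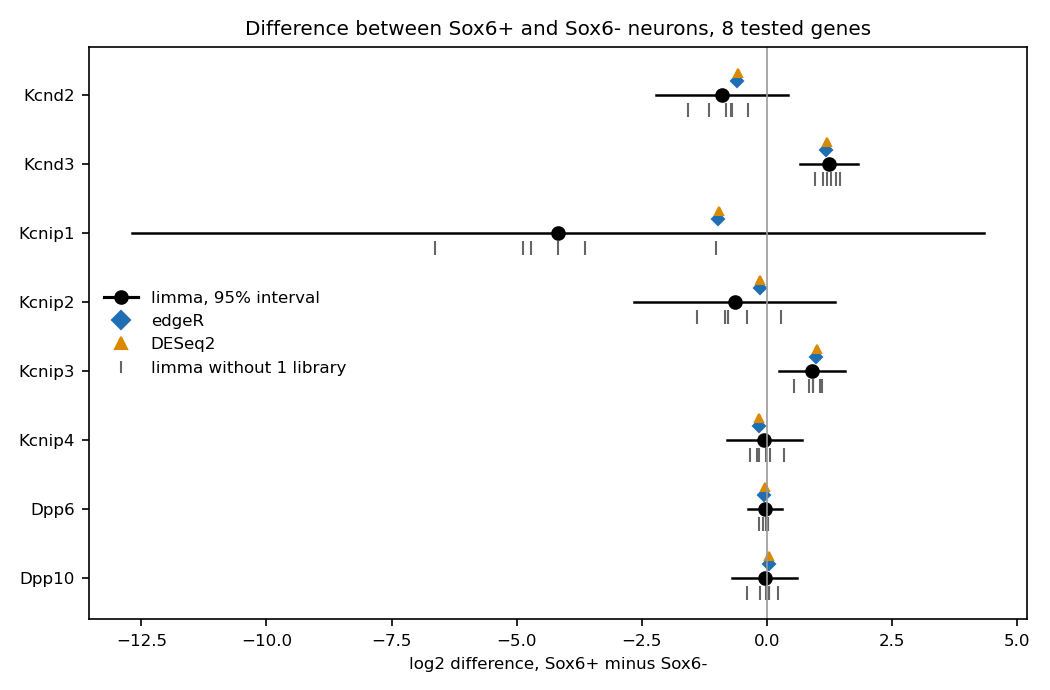
Log2 difference, Sox6+ minus Sox6-, of the 8 tested members: black points and lines are limma with its 95% interval, blue diamonds edgeR and orange triangles DESeq2 on the recovered reads, and grey ticks limma with 1 library left out. The limma intervals of Kcnd3 (0.65 to 1.81) and Kcnip3 (0.24 to 1.55) lie above 0, that of Dpp6 is the narrowest, and that of Kcnip1 spans from -12.69 to 4.33.

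Levels of different members were compared per kb of annotated exon. Kcnd3 had 193.9 ± 34.4 normalized reads per kb in Sox6+ and 84.9 ± 27.9 in Sox6- neurons, and Kcnd2 had 51.5 ± 45.5 in Sox6+ and 77.4 ± 23.6 in Sox6- neurons (SD, n = 3 each). Kcnd3 made up 59.5%, 91.2% and 86.6% of the summed pore level per kb in Sox6+ libraries 103, 825 and 1211, against 46.9%, 67.4% and 40.3% in the Sox6- libraries. It was thus the larger share in all 3 Sox6+ libraries and in Sox6- library 825. Kcnd2 was the larger in Sox6- libraries 103 and 1211, and the groups overlapped. With the longest transcript as length (7.17 kb for Kcnd3 in place of 9.59 kb) the Kcnd3 share was 66.3%, 93.3% and 89.6% in the Sox6+ libraries, against 54.2%, 73.4% and 47.5% in the Sox6- libraries. Kcnd3 was then also the larger in Sox6- library 103, so that order depends on the length used. The ratio of Kcnd3 to Kcnd2 per kb was 1.51, 10.34 and 7.10 in Sox6+ libraries 103, 825 and 1211, against 0.88, 2.18 and 0.68 in the Sox6- libraries. The widest 95% Wilson interval of a share, transformed per kb with the proportions of the other family members held, spanned 5.9 percentage points.

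The summed pore level per kb was 263.1, 220.5 and 258.9 in Sox6+ libraries 103, 825 and 1211, against 183.5, 166.5 and 139.9 in the Sox6- libraries, and these did not overlap. The summed KChIP level per kb was 1698.1, 1616.6 and 1787.1 in the Sox6+ libraries, against 1510.0, 2520.5 and 1533.1 in the Sox6- libraries, where library 825 was the highest, as it was for Kcnip4. The KChIP sum was therefore 6.45, 7.33 and 6.90 times the pore sum in the Sox6+ libraries, against 8.23, 15.14 and 10.96 times in the Sox6- libraries. For the DPP-like genes the multiple of the pore sum was 1.17, 1.33 and 0.97 in the Sox6+ libraries, against 1.44, 1.81 and 2.12 in the Sox6- libraries. Neither multiple overlapped between the groups, with either measure of length. The DPP-like sum itself was 307.8, 292.2 and 252.2 in the Sox6+ libraries, against 265.0, 301.7 and 296.2 in the Sox6- libraries. The KChIP and DPP-like sums thus overlapped between the groups, and both multiples share the pore sum, which did not. These sums are scores over chosen genes and were not tested. The higher pore sum in Sox6+ neurons rests on Kcnd3, at a mean of 193.9 per kb against 84.9. Kcnd2 went the other way, at 51.5 against 77.4, and Kcnd1 was at 2.0 against 1.0.

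Kcnip4 was the largest share of the KChIP level per kb in every library. It made up 65.0%, 74.7% and 86.7% in Sox6+ libraries 103, 825 and 1211, against 59.1%, 89.8% and 74.9% in the Sox6- libraries. Kcnip3 made up 11.0%, 25.2% and 11.0% in the Sox6+ libraries, against 8.2%, 5.4% and 8.9% in the Sox6- libraries, and these shares did not overlap. Kcnip1 varied most, at 22.9%, 0.0% and 1.9% in the Sox6+ libraries, against 32.1%, 4.4% and 15.1% in the Sox6- libraries. Kcnip2 stayed at or under 1.2% in all 6.

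Dpp6 made up 60.3%, 82.2% and 73.7% of the DPP-like level per kb in Sox6+ libraries 103, 825 and 1211, against 74.4%, 71.2% and 73.0% in the Sox6- libraries. The Sox6- libraries were within a few points of each other, and the Sox6+ libraries lay on both sides of them. Dpp6 has 12.35 kb of annotated exon but a longest transcript of 4.72 kb. With the longest transcript as length its mean share was 86.4% in Sox6+ and 87.2% in Sox6- neurons, so the size of this share depends on the length used and its order does not.

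**Figure D4:**
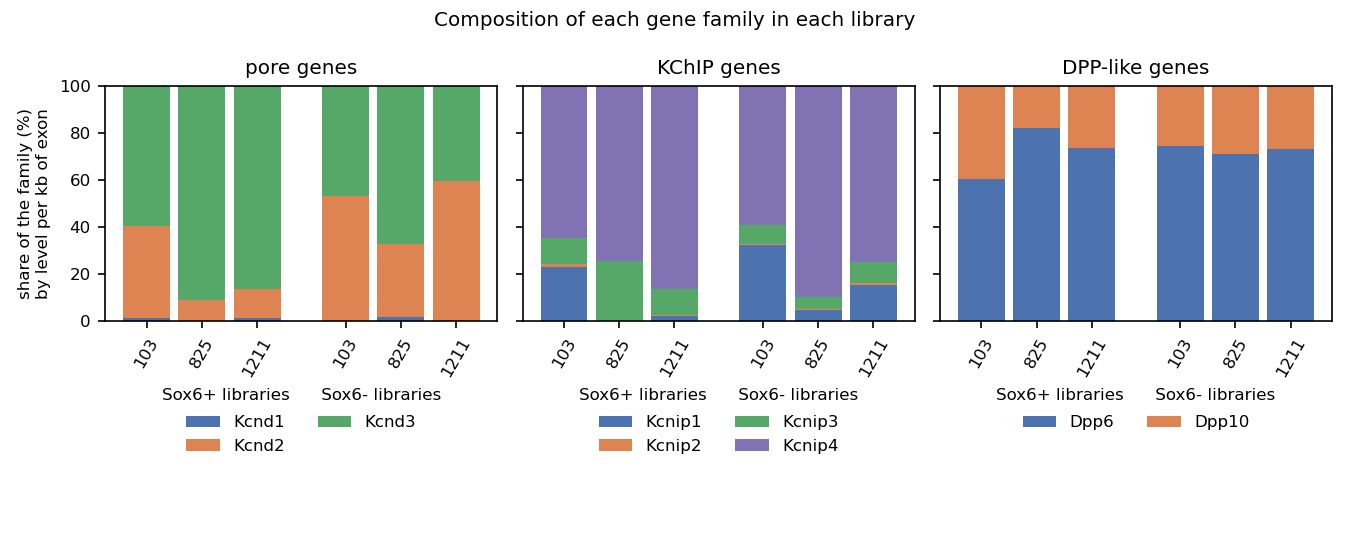
Share (%) of each member in the summed normalized level per kb of exon of its family, for the pore genes (left), the KChIP genes (middle) and the DPP-like genes (right), with 1 bar per library and the Sox6+ libraries left of the Sox6- libraries. Kcnd3 (green, left panel) is the larger pore share in the 3 Sox6+ libraries and in Sox6- library 825 by exon length (also in Sox6- library 103 by longest transcript), and Kcnip4 (purple, middle panel) is the largest KChIP share in all 6 libraries.

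Of 18 Kv1, Kv3, beta and KCNE genes, 14 were tested, and with limma, edgeR or DESeq2 0 passed in either direction. At an unadjusted p under 0.05 (limma), 3 genes were lower in Sox6+ neurons, where 6.17% of tested genes were lower, and 0 were higher. The groups did not overlap in 1 gene higher in Sox6+ neurons, Kcna6 (log2 difference 0.49, adjusted p = 0.504, limma), and in 3 lower. Among all tested genes, 7.86% were higher and 9.19% lower without overlap. The median log2 difference of the 14 was -0.40, beside -0.02 for all tested genes. The genes of smallest p were Kcnc2 and Kcnc4, which encode Kv3 channels of fast-spiking neurons and an A-type Kv3 channel, and Kcna5, a Kv1 channel. Kcnc2 had 125.3, 88.8 and 219.9 normalized reads in Sox6+ libraries 103, 825 and 1211, against 378.0, 274.9 and 304.2 in the Sox6- libraries, and its groups did not overlap. Its log2 difference was -1.22 (adjusted p = 0.236, limma), that of Kcnc4 was -1.04 (adjusted p = 0.317) and that of Kcna5, at 0 in Sox6+ library 825, was -3.82 (adjusted p = 0.278). Kcna4, the Kv1 gene of an A-type channel, averaged 72.8 ± 30.7 in Sox6+ and 113.5 ± 34.5 in Sox6- neurons (SD, n = 3 each), with an adjusted p of 0.601. Kcne1, Kcne4 and Kcne5, which the table lists under its older symbol, were at 0 in all 6 libraries.

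Genes of proteins that bind or modify Kv4 channels gave 0 calls among 12 tested with limma, and 0 with edgeR or DESeq2. At an unadjusted p under 0.05, 3 genes were lower in Sox6+ neurons (6.17% of tested genes) and 0 higher. The groups did not overlap in 6, all lower in Sox6+ neurons (9.19% of tested genes). The glutamatergic marker sum, mostly Slc17a6, was also lower without overlap, at 162.8 to 999.3 in Sox6+ and 2236.7 to 4815.2 in Sox6- libraries. The 8 dopaminergic markers had positive differences. The part of these markers was not tested. The median log2 difference of the 12 partner genes was -0.24, beside -0.02 for all tested genes. Akap5, a scaffold for protein kinase A, had 96.7, 25.1 and 34.2 normalized reads in Sox6+ libraries 103, 825 and 1211, against 271.5, 129.9 and 126.1 in the Sox6- libraries (log2 difference -1.89, adjusted p = 0.247, limma). Dlg1, the scaffold SAP97, had a log2 difference of -0.61 (adjusted p = 0.272) and Camk2b, a subunit of calmodulin-dependent kinase II, of -0.60 (adjusted p = 0.317). Ncs1, a calcium sensor that also binds Kv4 channels, averaged 762.0 ± 28.7 in Sox6+ and 742.4 ± 48.2 in Sox6- neurons (SD, n = 3 each), with a log2 interval from -0.33 to 0.41.

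Of the relatives of the DPP-like subunits, the dipeptidyl peptidase genes Dpp8 and Dpp9 were tested, with log2 differences of -0.38 and 0.18 (adjusted p = 0.661 and 0.887, limma). Neither had an unadjusted p under 0.05. Dpp4 and Fap, with a mean under 10, were at 0 in all 3 Sox6+ libraries. Fap had 24.1 normalized reads in Sox6- library 1211 and 0 in the other Sox6- libraries.

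**Figure D5:**
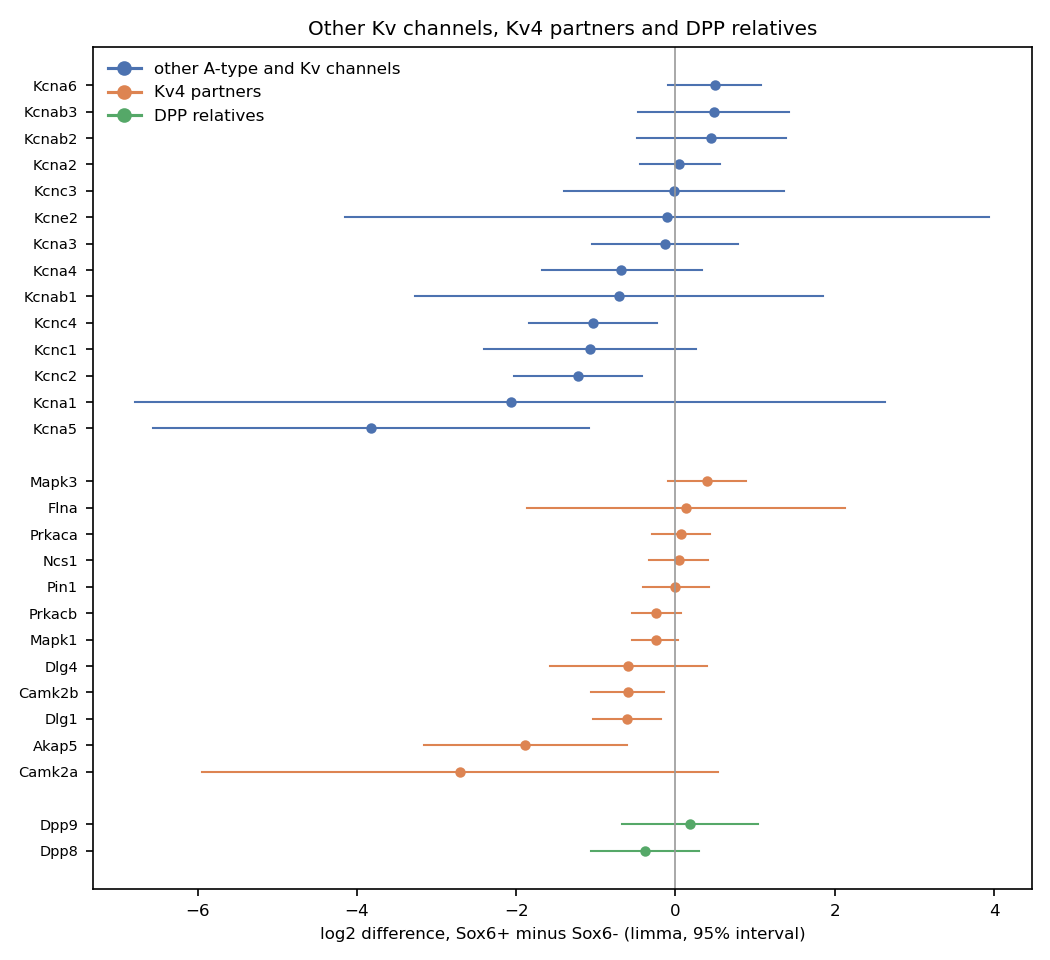
Log2 difference, Sox6+ minus Sox6-, with the 95% interval of limma for the tested genes of 3 lists: other A-type and Kv channels (blue), Kv4 partners (orange) and DPP relatives (green), ordered within each list. Among the Kv channels 4 of 14 points lie above 0 and 10 below it, and none of the 28 genes passed the adjusted threshold.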

How the data were processed

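Stranded TruSeq mRNA libraries were made from mirVana total RNA, per the labels' protocols. STAR, HTSeq, DESeq2, cutadapt and FastQC and the builds mm10 and GRCm38 are named in the submitters' processing notes. Versions, order and settings: not given in the sources used here. A single table was deposited by the authors, with a normalized signal per library, its mean, a log2 fold change, its standard error and test statistic (both taken as a score) and p-values. Each deposited signal value is reads over a library's size factor: 100.0% of values above 0 were whole multiples of the value of 1 read (0.9241 to 1.1387), within 0.01.

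Genes with a mean of at least 10 (13175) were fitted on log2(value + 1) with limma 3.58.1 (R 4.3.3; trend, robust, no block), with 2-sided p-values and Benjamini-Hochberg adjustment at 0.05. Differences are on that scale, which understates changes of low genes. Where 1 library is at 0 they can be far larger than with edgeR, as for Kcnip1 (-4.18 with limma, -0.98 with edgeR). EdgeR 4.0.16 and DESeq2 1.42.0 on recovered reads, other settings and left-out libraries were alternatives. Exon lengths and positions are from GENCODE M21. The members and lists were chosen with earlier results of these data known. Text names all members and, per related list, the 3 genes of smallest p; Kcna4, Kcna6, Ncs1, Fap, Dpp4 and the KCNE genes were added after their values were seen.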

Additional observations from a re-analysis of the deposited data

How the results depend on the processing

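The count of 0 members past the threshold became 1, Kcnd3, with library weights and with DESeq2, and ran from 0 to 1 with libraries left out (1 without Sox6+ library 103). No gene of the Kv channel and Kv4 partner lists passed in any of the 21 alternatives. The 40 calls over all genes became 69 with a pseudocount of 8 and with quantile normalization, 21 without a filter, 24 without trend and robust moderation, 206 with library weights, 6 with edgeR and 387 with DESeq2. With libraries left out they ran from 1 to 161. The lowest was without Sox6- library 1211 or both libraries 1211, and the highest without Sox6+ library 103. There were 9 and 8 when Sox6+ libraries 825 or 1211 were dropped, 18 for Sox6- library 825, 70 for both libraries 103 and 2 for both libraries 825.

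Signs turned in Kcnip2, Kcnip4, Dpp6 and Dpp10. Kcnip4 was 0.07 with library weights and ran from -0.34 to 0.37 with libraries left out. Dpp10 was 0.03 with edgeR and 0.04 with DESeq2, and ran from -0.50 to 0.29 with libraries left out. The range was -0.17 to 0.04 for Dpp6 and -1.53 to 0.28 for Kcnip2. The cause was not tested. Kcnd2, Kcnd3, Kcnip1 and Kcnip3 kept their sign in all alternatives.

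With the library number as a replicate block, limma called 1 member, Kcnd3 (adjusted p = 0.0458), and 267 genes, and edgeR 0 members and 120 genes. With limma and this block the unadjusted p was 0.00361 for Kcnip3 (adjusted 0.0943) and 0.0224 for Kcnd2 (adjusted 0.207). Without the block the unadjusted limma p was 0.0129 for Kcnip3 and 0.155 for Kcnd2. Deviations from the group means correlated at 0.268, 0.172 and 0.079 between libraries numbered 103, 825 and 1211. The last is under 0.1, and the labels do not say what a number marks, so the numbers were not taken as pairs, although by these deviations each Sox6+ library correlated best with the Sox6- library of its own number. Depth limits Kcnd1 and Kcnip2, which rest on 18 or fewer and on 5 reads in single libraries.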
